A study of Mus musculus with 6 samples.

Results

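High endothelial venules are the vessels through which lymphocytes leave the blood and enter a lymph node, and 7 genes that mark them were followed here by symbol: Glycam1, Chst4, Fut7, Ackr1, Sele, Selp and Madcam1. Each symbol was found once, among 22274 genes listed in the deposited table, so all 7 members were measured. RNA came from mouse popliteal nodes, which drain the footpad, after extracellular vesicles (EVs, membrane particles released by cells) had been injected into the footpad every other day over a course of 10 days. In 3 nodes the vesicles came from UM-UC-3, a human bladder cancer cell line. In 3 they came from SV-HUC-1, a line of human urinary tract lining cells made permanent by the SV40 virus. The labels also name a lipofectamine reagent. The sources used here give no strain, genotype or age, and describe 3 independent experiments. The deposited libraries are numbered LN-1 to LN-6, whereas the labels number the nodes 1 to 3 within each vesicle source, so no library could be tied to a vesicle source. The values below therefore describe 6 nodes of mixed treatment, and no difference between the vesicle sources is given.

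The wall of a high endothelial venule carries sugar-coated mucins that catch lymphocytes and slow them in the bloodstream. Fut7 encodes the fucosyltransferase and Chst4 the sulfotransferase that finish the sulfated, fucosylated sugar of these mucins, and Glycam1 encodes a secreted mucin that carries it. Madcam1 encodes an adhesion molecule bound by the integrin α4β7, and in lymph nodes it is also made by reticular stromal cells beneath the capsule. Ackr1 encodes an atypical chemokine receptor of venules that binds chemokines without signalling through G proteins. Sele (E-selectin) and Selp (P-selectin) encode selectins of inflamed endothelium; P-selectin is also stored in platelets.

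Lengths of 250 bases upstream of the annotated start were compared for a form of the NF-kB site, GGG then any 2 bases then TTTCC, and for TATAAA, on both strands. RefSeq (GRCm38.p6) gave such a sequence for all 7 members, with more than 1 start for Fut7. Madcam1 held the NF-kB form at 2 places, both on the opposite strand and first reached 83 and 70 bases before the start. Of 32851 promoters of the same length, 1.41% held it. Sele held TATAAA, 49 bases before the start, as did 12.4% of promoters. The other 5 members matched neither in this window. The sequences of Madcam1 (chr10:79664309-79664558, plus strand), Glycam1 (chr15:103565082-103565331, minus strand) and Sele (chr1:164047984-164048233, plus strand) are shown. Madcam1 and Glycam1 varied alike between nodes, though over all 6 libraries Ackr1 and Chst4 followed Glycam1 more closely. Sele, on 6 to 20 counts, did not vary with them. Any link between these sequences and the variation was not tested. The sequences run 5′ to 3′ towards the start, and capitals mark the matches.
Madcam1: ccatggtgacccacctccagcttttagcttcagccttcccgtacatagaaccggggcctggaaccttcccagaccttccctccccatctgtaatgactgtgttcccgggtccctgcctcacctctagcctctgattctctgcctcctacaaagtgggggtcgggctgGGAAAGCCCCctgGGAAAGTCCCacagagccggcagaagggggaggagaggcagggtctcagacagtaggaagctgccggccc
Glycam1: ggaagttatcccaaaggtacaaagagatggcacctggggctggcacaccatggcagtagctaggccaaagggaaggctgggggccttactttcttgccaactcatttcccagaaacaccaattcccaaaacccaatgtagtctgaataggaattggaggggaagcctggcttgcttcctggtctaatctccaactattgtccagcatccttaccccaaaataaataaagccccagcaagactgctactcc
Sele: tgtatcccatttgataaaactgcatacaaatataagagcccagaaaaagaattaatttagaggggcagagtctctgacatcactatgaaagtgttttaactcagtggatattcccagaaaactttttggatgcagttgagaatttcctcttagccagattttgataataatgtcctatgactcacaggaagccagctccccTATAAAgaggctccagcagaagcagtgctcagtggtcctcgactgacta

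The libraries held 13039906 to 18093699 estimated counts each. Between 24.9% and 49.8% of genes differed in any pair of libraries beyond counting error, so no library was a copy of another. Levels are given as CPM, the usual scaling of counts to a common library size, here with the edgeR factor TMM, which ranged from 0.98 to 1.01. As a check of the tissue, the summed CPM of 6 B cell markers was 4045 to 5457. The 8 T cell markers summed to 265 to 379 CPM. Most of that sum came from Cd4 (85.9 to 165 CPM), Lck (74.7 to 84.4 CPM) and Cd2 (36.5 to 78.3 CPM). The defining receptor genes among the 8 were low: Cd3e was at 2.83 to 5.60 CPM and Trac at 0.939 to 3.20 CPM. The nodes also differed in tissue that is dissected with them. Adipocyte genes summed to 2849.5 CPM in LN-6 and 1470.1 CPM in LN-2, against 77.7 to 426 CPM in the other libraries. Skeletal muscle genes summed to 923 CPM in LN-2 and 216 CPM in LN-3, against 2.28 to 27.9 CPM elsewhere, and globin and other erythroid genes to 1093 CPM in LN-4 and 795 CPM in LN-2, against 84.2 to 206 CPM elsewhere. Milk genes also varied widely. Csn3 had a mean of 21.5 CPM and a highest over lowest ratio of 38.47. Btn1a1 had a mean of 4.89 CPM and a ratio of 47.74. The part of mammary tissue in the Glycam1 values was not tested. In whole nodes, fewer cells of a type and less RNA per cell cannot be told apart.

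**Figure D1:**
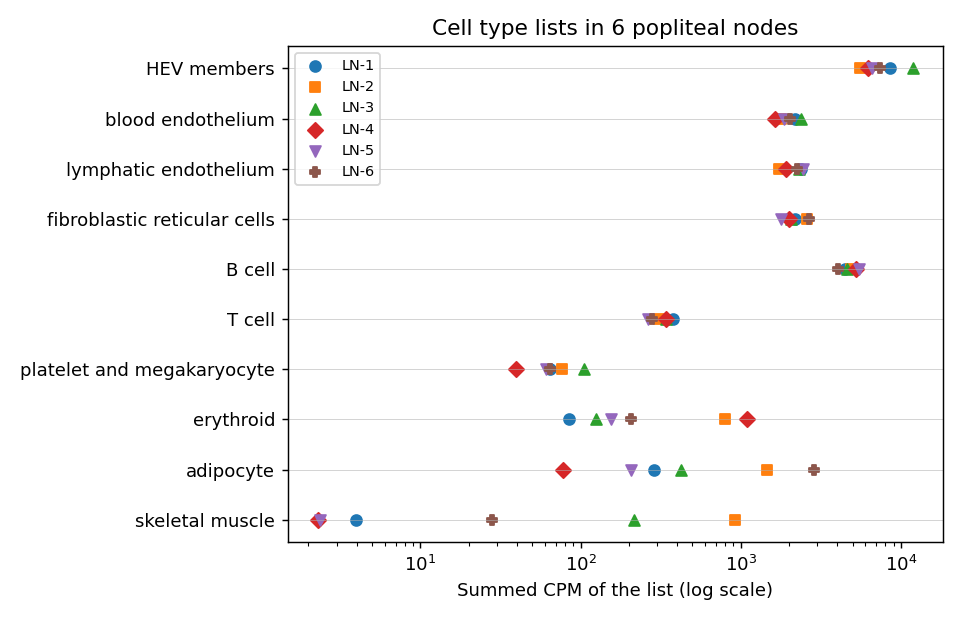
Summed CPM (log scale) of 10 gene lists in each of the 6 libraries, with 1 symbol per library. The member sum was highest in LN-3, as was the blood endothelium sum, while the adipocyte and muscle sums spread over a far wider range than either.

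Glycam1 (ENSMUSG00000022491, chromosome 15, 103562759 to 103565081, minus strand, GENCODE M21 on GRCm38) was among the most abundant transcripts of every node. It was at 8402 CPM in LN-1, 5418 CPM in LN-2, 11634 CPM in LN-3, 6133 CPM in LN-4, 6492 CPM in LN-5 and 7236 CPM in LN-6. LN-3 stood highest and LN-2 lowest, a ratio of 2.15. By CPM it ranked between 2 and 8 among all listed genes in the 6 libraries, and it took 0.545% to 1.16% of all counts. Per kilobase of exon, which allows comparison between genes, its rank lay between 5 and 11.

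Of the enzymes that build this sugar, Chst4 (ENSMUSG00000035930, chromosome 8, 110029153 to 110039740, minus strand) was at 62.0 CPM in LN-1, 51.1 in LN-2, 70.5 in LN-3, 49.6 in LN-4, 58.2 in LN-5 and 58.8 in LN-6. LN-3 was again highest, but the range was narrow, with a highest over lowest ratio of 1.42. Fut7 (ENSMUSG00000036587, chromosome 2, 25423267 to 25426374, plus strand) was at 52.8 CPM in LN-1, 41.1 in LN-2, 62.1 in LN-3, 35.6 in LN-4, 38.5 in LN-5 and 44.5 in LN-6. Its order of libraries differed from that of Chst4 below the 2 highest, LN-3 and LN-1, and its ratio was 1.75.

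Madcam1 (ENSMUSG00000020310, chromosome 10, 79664559 to 79668537, plus strand) was at 40.5 CPM in LN-1, 31.6 in LN-2, 62.6 in LN-3, 25.5 in LN-4, 29.0 in LN-5 and 37.2 in LN-6. LN-3 stood well above the other 5, and the ratio of 2.45 was reduced to 1.59 without it. The 7 genes of marginal reticular and follicular dendritic cells, stromal cells of the node, had a narrower summed range: they summed to 9255 CPM in LN-3, against 7762 to 9069 CPM in the other libraries. Tnfsf11, the cytokine RANKL and a marker of marginal reticular cells, was highest in LN-2 at 66.2 CPM and lowest in LN-5 at 36.2 CPM. Fcer2a, the low-affinity IgE receptor CD23, had the narrowest ratio of that list, at 669 to 799 CPM. The largest values of the list in LN-3 were Clu at 3672, Mfge8 at 1952 and Enpp2 at 1577 CPM. Enpp2 is also on the list of venular genes below. B cells can also make Fcer2a and Cr2, which was highest in LN-4 at 979.5 CPM. Their part in the sum was not tested, so its narrow range says little about the stromal source of Madcam1.

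Ackr1 (ENSMUSG00000037872, chromosome 1, 173331886 to 173333750, minus strand) was at 18.6 CPM in LN-1, 13.8 in LN-2, 25.5 in LN-3, 14.3 in LN-4, 16.5 in LN-5 and 16.5 in LN-6. The 2 libraries richest in erythroid transcripts, LN-4 and LN-2, were its lowest. Red cell precursors can also make this receptor, and their part in the Ackr1 values was not tested. The annotated span of Ackr1 overlaps Cadm3 on the same strand, so its counts carry that uncertainty.

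The inflammation-induced selectins were scarce in all 6 nodes. Selp (ENSMUSG00000026580, chromosome 1, 164115264 to 164150026, plus strand) was at 3.43 CPM in LN-1, 5.24 in LN-2, 5.44 in LN-3, 4.62 in LN-4, 5.19 in LN-5 and 2.66 in LN-6, on 34 to 84 counts. LN-1 and LN-6 were its lowest libraries. Those are also the 2 libraries in which the platelet chemokine gene Ppbp was lowest, at 0.0660 CPM in LN-1 and 0.0782 CPM in LN-6, against 2.11 to 14.0 CPM elsewhere. The scarce platelet genes Gp1bb and Gp9, at most 1.20 and 0.919 CPM, were lowest there too. Gp1bb was at 0 in both, and Gp9 at 0 in LN-1 and 0.156 CPM in LN-6. Gp6 was lowest in LN-6 at 0 and LN-4 at 0.0557 CPM. The more abundant platelet genes had other lowest libraries. Pf4 was lowest in LN-5 at 4.02 CPM and LN-4 at 4.34 CPM, and Itga2b in LN-4 at 32.9 CPM and LN-5 at 45.6 CPM. The 6 platelet genes summed to 105 CPM in LN-3, 76.9 in LN-2, 64.7 in LN-6, 64.4 in LN-1, 60.8 in LN-5 and 39.7 in LN-4, and 3 of them were at 0 in at least 1 library; their part in the Selp values was not tested. The annotated genes Gm16548 and Gm16587 lie opposite Selp, and the sources used here do not say whether the counting used strand.

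Sele (ENSMUSG00000026582, chromosome 1, 164048234 to 164057677, plus strand) lies beside Selp and was the lowest member. It had 10 counts in LN-1, 20 in LN-2, 16 in LN-3, 8 in LN-4, 12 in LN-5 and 6 in LN-6. These counts correspond to 0.660, 1.46, 1.13, 0.445, 0.742 and 0.469 CPM. The exact Poisson 95% interval of the highest value, 0.889 to 2.25 CPM in LN-2, did not reach that of the lowest, which was 0.192 to 0.877 CPM in LN-4, but overlapped those of LN-1, LN-3, LN-5 and LN-6, so at this depth only coarse differences can be seen. Such intervals cover counting error alone. Sele was the 1 member whose mean stayed under 1 CPM, the limit used here for an expressed gene; the other 6 passed it, as did 13799 genes in all.

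**Figure D2:**
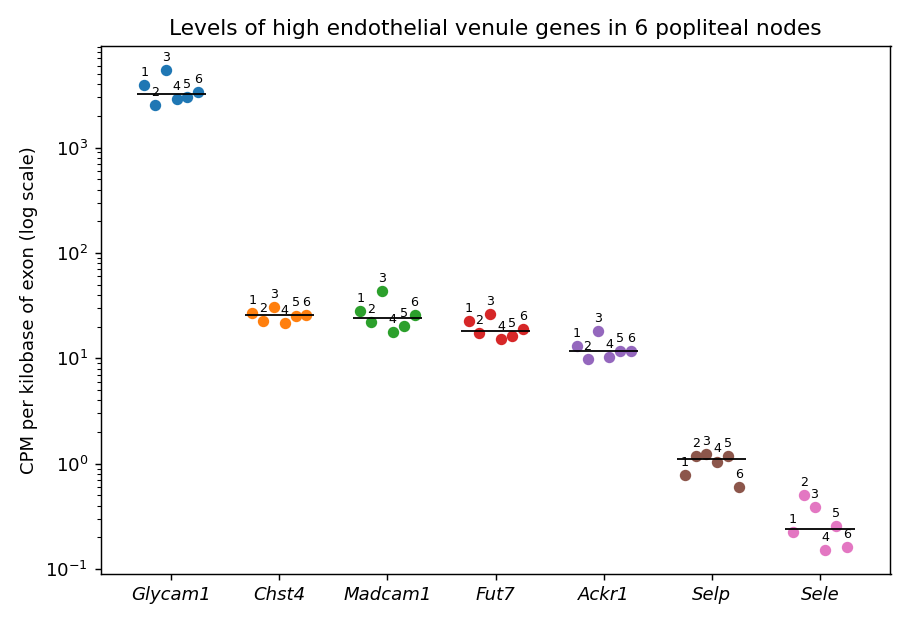
CPM per kilobase of exon (log scale) of each member, with 1 point per library numbered as in LN-1 to LN-6 and a bar at the median. Glycam1 lies far above the rest, Chst4, Madcam1, Fut7 and Ackr1 form a middle band, and Selp and Sele lie lowest.

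Ordered by the median CPM per kilobase, the members were Glycam1 (3218), Chst4 (25.6), Madcam1 (24.0), Fut7 (18.2), Ackr1 (11.7), Selp (1.11) and Sele (0.241). Neighbours in this order were compared within libraries by exact paired permutation tests (two-sided, 6 libraries, 6 pairs, Benjamini-Hochberg adjusted), for which 0.0312 is the smallest p that 6 libraries allow. Of the 6 pairs, 5 kept the same order in 6 of 6 libraries (exact permutation p = 0.0312, adjusted p = 0.0375 for each). The order was taken from these same libraries, so this p adds nothing to the count of 6 of 6. Glycam1 exceeded Chst4 by 7.08 on the log2 scale, with single libraries between 6.83 and 7.46. Fut7 exceeded Ackr1 by 0.64, Madcam1 exceeded Fut7 by 0.40, Ackr1 exceeded Selp by 3.65 and Selp exceeded Sele by 1.93 on the same scale. Chst4 and Madcam1 were not separated: the mean log2 difference was 0.02, ranging from -0.50 to 0.34, and Chst4 was higher in 3 of 6 libraries (exact permutation p = 0.938, adjusted p = 0.938).

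Each member was then asked whether its libraries differed beyond counting error, by a chi-square test of the counts over all 14824 genes with enough counts. All 7 members were called at an adjusted p under 0.05, but so were 75.9% of genes tested, so the members' count is near the background. The test compares libraries, not vesicle sources. Madcam1 had a chi-square of 357 and Fut7 of 167 on 5 degrees of freedom, against 19.8 for Selp (adjusted p = 0.00228) and 14.3 for Sele (adjusted p = 0.0195). The call for Sele was lost without LN-2 (adjusted p = 0.189) or without LN-4 (adjusted p = 0.0634), and that for Selp without LN-6 (adjusted p = 0.104).

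The size of the spread was read from the ratio of the highest to the lowest library. The median ratio was 2.05 over the 7 members, against 1.37 over the 13799 expressed genes, and each of the 7 was above that median. Sele, which missed the limit for an expressed gene, had the widest ratio, 3.27, and the median of the other 6 was 1.95. Among expressed genes, the ratio of Madcam1 lay at percentile 89.2, Glycam1 at 86.1, Selp at 84.7, Ackr1 at 80.5, Fut7 at 77.7 and Chst4 at 56.8. The ratio grows with counting error, which touches Selp and Sele most. The biological coefficient of variation from edgeR, which allows for counting error, had a median of 0.224 over the 6 members that passed the limit, against 0.142 over expressed genes. It was 0.286 for Selp, 0.277 for Madcam1, 0.237 for Glycam1 and 0.138 for Chst4.

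**Figure D3:**
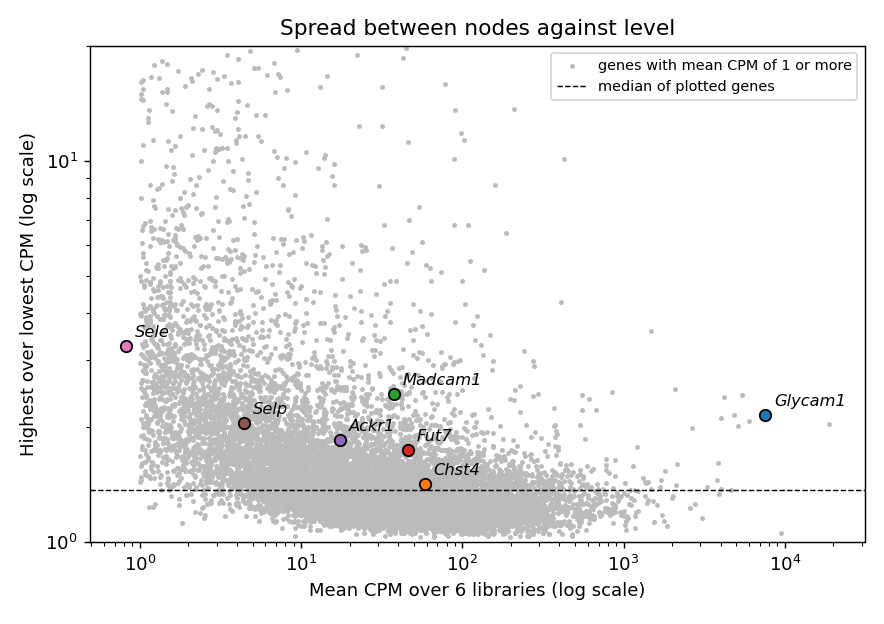
Highest over lowest CPM among the 6 libraries (log scale) against mean CPM (log scale), for expressed genes in grey and members in colour; the dashed line is the median of the grey points. The vertical axis ends at 20, and 136 genes above it are not drawn, nor are the 73 expressed genes at 0 in a library. Madcam1 and Glycam1 stand above most genes of their level, and Chst4 lies close to the median line.

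Relative to its own median, LN-3 was the highest library for 6 of 7 members, and the exception was Sele, which was highest in LN-2. The share of all expressed genes highest in LN-3 was not counted. Such counts, here and for the lists below, therefore have no background beside them. LN-1 was second for 5 members. In LN-3 the level over the median was 1.82 for Madcam1, 1.69 for Glycam1, 1.55 for Ackr1, 1.45 for Fut7 and 1.20 for Chst4. Those 5 genes shared LN-3 and LN-1 as their 2 highest libraries. Selp instead stood at 1.11 in LN-3 and 0.70 in LN-1, and Sele at 1.61 and 0.94.

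**Figure D4:**
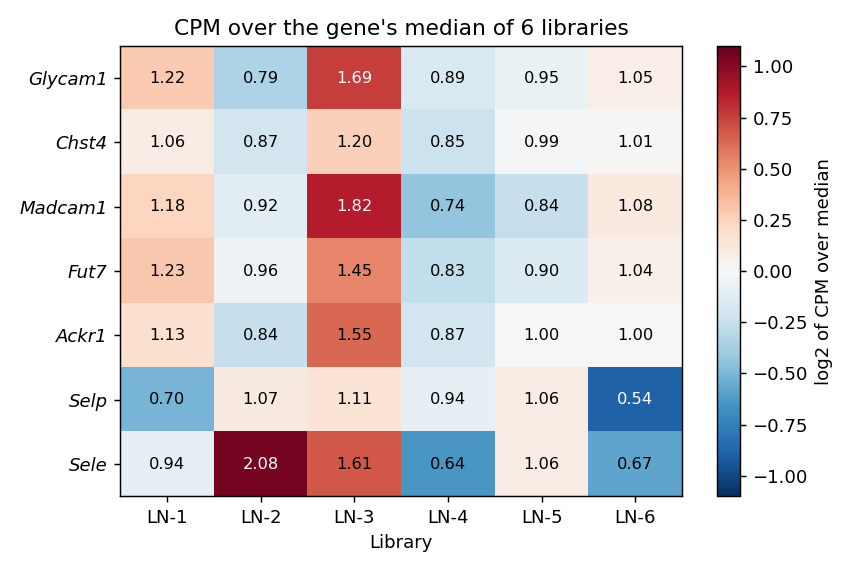
CPM of each member over its median of the 6 libraries, with the ratio printed in each cell and its log2 as colour. The column of LN-3 is red for all 7 genes, most for Madcam1 at 1.82, while Selp and Sele depart from the other 5 in LN-1, LN-2 and LN-6.

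The likeness of each pattern to that of Glycam1 was described by Pearson's r of log2(CPM + 1) over the 6 libraries, which share their depth and dissection with every gene compared and are of mixed treatment. It was 0.98 for Ackr1, 0.94 for Chst4, 0.92 for Madcam1 and 0.91 for Fut7, with Spearman's rho of 1.00, 0.94, 0.83 and 0.83 in the same order. For Sele it was 0.07 and for Selp -0.03, with rho of -0.03 for both. Without LN-3 and LN-2, the 2 libraries farthest from the Glycam1 median, r over the remaining 4 was 0.91 for Ackr1, 0.83 for Chst4, 0.96 for Madcam1 and 1.00 for Fut7. Of 10276 genes at a mean of 10 CPM or more, 216, or 2.10%, reached 0.9. The 10 genes closest to Glycam1, members left out, were Prnp, Spns2, Cnbp, Rpl5, Pecam1, Urm1, Btf3l4, Ifngr1, Mettl27 and Erlec1, at r of 0.98 to 0.99. Pecam1 is an adhesion molecule of endothelium that leukocytes and platelets also carry. Spns2 is the transporter that releases sphingosine-1-phosphate from endothelial cells.

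Because vessels of every kind can vary between nodes, the members were also set against the summed CPM of 12 blood endothelial genes. That sum was 2384 CPM in LN-3, 2172 in LN-1, 2025 in LN-6, 1872 in LN-5, 1782 in LN-2 and 1642 in LN-4, and 9 of the 12 genes were highest in LN-3. Pecam1 was the largest of the 12, at 642 to 837 CPM, against 148 to 204 CPM for Cdh5. Leukocytes and platelets also make Pecam1, and their part in the sum was not tested. Chst4 then varied little: its level over the endothelial sum was 0.0285 in LN-1, 0.0287 in LN-2, 0.0296 in LN-3, 0.0302 in LN-4, 0.0311 in LN-5 and 0.0291 in LN-6. The ratio of highest to lowest was 1.09, against 1.42 for its CPM, which placed it at percentile 0.0653 of 13787 expressed genes scaled alike. A chi-square test of Chst4 against this scale found no difference between libraries (adjusted p = 0.441), which does not show that the libraries are equal; 88.2% of genes were called by the same test.

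Glycam1 and Madcam1 had wider ranges than Chst4 on the endothelial scale. Glycam1 was at 3.87 times the endothelial sum in LN-1, 3.04 in LN-2, 4.88 in LN-3, 3.74 in LN-4, 3.47 in LN-5 and 3.57 in LN-6, a ratio of 1.61. Madcam1 was at 0.0262 in LN-3, against 0.0155 to 0.0187 in the other libraries, a ratio of 1.69 (chi-square test, adjusted p = 6.70e-27). The ratio was 1.38 for Ackr1 (adjusted p = 0.00350) and 1.27 for Fut7 (adjusted p = 7.08e-05). For Selp it was 2.24 (adjusted p = 2.85e-05) and for Sele 3.52 (adjusted p = 0.0144), both wider than on the CPM scale. The median over the 7 members was 1.61, against 1.62 over expressed genes scaled alike, and over the 6 expressed members it was 1.49.

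**Figure D5:**
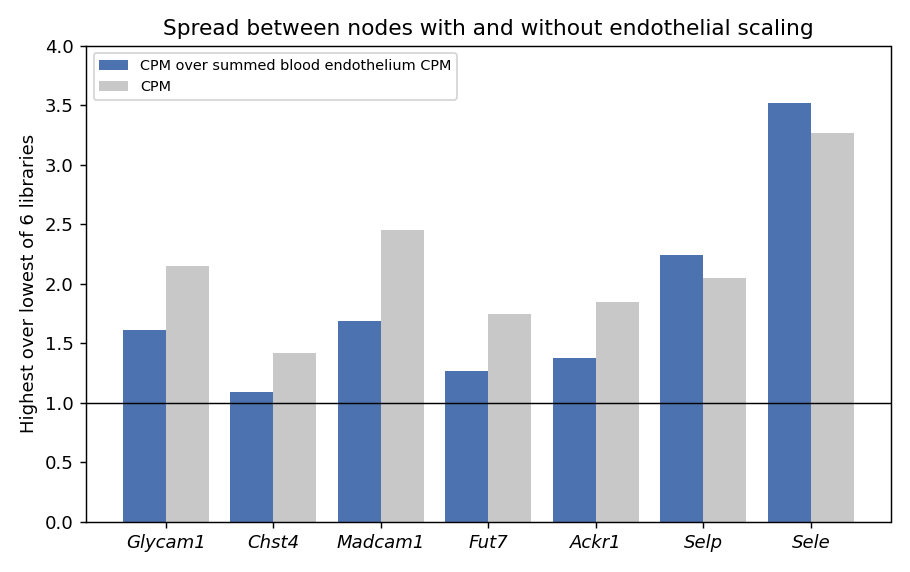
Highest over lowest of the 6 libraries for each member, as CPM over the summed blood endothelium CPM (blue) and as CPM (grey), with a line at 1. Blue bars are shorter than grey ones for Glycam1, Chst4, Madcam1, Fut7 and Ackr1, and longer for Selp and Sele.

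Ratios to Chst4 use no endothelial list. They are no separate check, since Chst4 over the endothelial sum had a ratio of only 1.09, so both scales must nearly coincide. Glycam1 was at 165 times the CPM of Chst4 in LN-3 and at 106 times in LN-2, with the other libraries between 112 and 136. Madcam1 over Chst4 was 0.888 in LN-3, against 0.498 to 0.654 elsewhere. Fut7 over Chst4 ranged from 0.662 in LN-5 to 0.882 in LN-3, and Ackr1 over Chst4 from 0.271 in LN-2 to 0.362 in LN-3. The enzyme pair and the venular receptor thus held narrower ratios, 1.33 for Fut7 and 1.34 for Ackr1, than the mucin at 1.56 and the integrin ligand at 1.78. The selectins were widest over Chst4, at 2.27 for Selp and 3.57 for Sele.

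Other genes of the homing route were measured alongside, and their counts of calls are to be read against the 75.9% of all genes called by the same test and their median ratios against 1.37 over expressed genes. All 5 mucin-like scaffolds that can carry the sugar were called to differ between libraries, with a median ratio of 1.66. The widest was Emcn (endomucin), at 65.5 CPM in LN-3 and 35.2 CPM in LN-5, and the narrowest Cd300lg (nepmucin), at 99.4 CPM in LN-4 and 78.7 CPM in LN-1. Cd34, the best known of these mucins, was highest in LN-3 at 179 CPM and lowest in LN-5 at 101 CPM. Of the 9 other sulfation and glycan enzymes all were called, with a median ratio of 1.40, near that of expressed genes at 1.37. Chst2, the sulfotransferase that acts beside Chst4, was at 79.3 CPM in LN-3 and 56.6 CPM in LN-4, the same extremes as Chst4. B4galt1, a galactosyltransferase, varied least, from 96.1 CPM in LN-1 to 113 CPM in LN-5.

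On the lymphocyte side, all 7 counter-receptor genes measured were called, against 75.9% of all genes, and none was highest in LN-3. Itga4, the α4 chain of the Madcam1 receptor, had the widest ratio among them, at 453 CPM in LN-4 and 250.1 CPM in LN-3, the library in which Madcam1 was highest. Itgb7, the β7 chain of that receptor, was not lowest there. It was at 172 CPM in LN-3, between 139.7 CPM in LN-6 and 189 CPM in LN-5. Cd44, a hyaluronan receptor that can also bind E-selectin, had the narrowest, at 184 to 233 CPM.

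Lymphotoxin signalling, which maintains high endothelial venules in adult nodes, was covered by 7 genes. Of these, 6 were called, Tnfsf14 was not (adjusted p = 0.107), none was highest in LN-3, and the median ratio was 1.28; the share called in all genes was 75.9%. Ltbr, the receptor, had the widest ratio, at 41.0 CPM in LN-6 and 27.9 CPM in LN-4, and Relb, a non-canonical NF-kB subunit, the narrowest, at 142 to 162 CPM. Ltb, a chain of the ligand, was at 313 CPM in LN-3, within its range of 268 to 329 CPM. Among venular adhesion and chemokine genes all 8 were called, against the same share. Ccl19, a ligand of Ccr7, was widest, at 359.7 CPM in LN-3 and 178 CPM in LN-2, the extremes that Glycam1 also had. It is also on the list of fibroblastic reticular genes below, and which cells its RNA came from was not tested. Vcam1, a ligand of the α4 integrins, was narrowest, at 282 to 324 CPM, and Icam1, a ligand of the leukocyte integrin LFA-1, was at 181 CPM in LN-3, its lowest library.

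The neighbouring cell types were read by the same rule. In the blood endothelium list the widest gene was Cldn5, a tight junction protein, at 66.7 CPM in LN-3 and 23.3 CPM in LN-4, and the narrowest Flt1, a VEGF receptor, at 50.7 to 63.6 CPM. The 8 lymphatic endothelial genes summed to 1728 to 2437 CPM and were highest in LN-5, where Ccl21a, a chemokine that venules and stroma also carry, made up 2153 CPM. Without Ccl21a the other 7 summed to 446 CPM in LN-1, 421 in LN-3, 385 in LN-6, 330.0 in LN-2, 284 in LN-5 and 265 in LN-4, so that LN-1 and LN-3 were highest. Flt4, the VEGF-C receptor, was widest there, at 54.8 CPM in LN-1 and 23.6 CPM in LN-4, and Pdpn (podoplanin) narrowest, at 6.73 to 8.66 CPM (chi-square test, adjusted p = 0.499). Fibroblastic reticular genes summed to 1779 to 2673 CPM, and the sum was highest in LN-6. Col3a1, a collagen, was widest at 942 CPM in LN-2 and 396 CPM in LN-5. Pdgfrb, a growth factor receptor, was narrowest at 97.0 to 121 CPM. Matrix genes weighed heavily in LN-6, with Dcn at 781, Col3a1 at 775 and Col1a2 at 400.3 CPM. Not all genes of the list followed the sum. Il7 was lowest in LN-6 at 22.5 CPM, and Ccl19 was highest in LN-3 at 359.7 CPM. The part of connective tissue dissected with the nodes was not tested.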

How the data were processed

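Total RNA of 6 popliteal lymph nodes was sequenced after preparation with an Illumina TruSeq RNA kit, per the labels' protocols, and aligned to mm10 with HISAT2 2.4, per the submitters' processing notes. The authors deposited estimated counts per gene, per the file headers, not all of them whole (1966 to 2078 values per library had decimals); they were rounded here. The sources used here name no counting tool or annotation. The 6 FPKM columns were not used. Column names show the tissue and no vesicle source, so the libraries entered as 1 group of 6, with no comparison between sources and no mean or SD. The design text speaks of independent experiments; whether nodes came from separate animals is not stated.

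Members were matched by deposited symbol, and all other genes by Ensembl identifier to GENCODE M21, which held 22219 of 22274 identifiers. CPM used TMM library sizes from edgeR 4.0.16 in R 4.3.3; levels per kilobase used the union of annotated exons. Differences between libraries were tested with Pearson's chi-square (expected count of at least 5, Benjamini-Hochberg over all genes, threshold 0.05) in SciPy 1.17.1; the test was checked on simulated data. Dispersions came from edgeR with an intercept only. Genes named from other lists were those with the widest and the narrowest ratio among expressed genes. Cd34, Chst2, Ltb, Icam1, Cd3e, Cd4, Cd2, Pf4, Gp1bb, Gp9, Gp6 and Gcnt1 were chosen after their values were seen. So were Cr2, Clu, Mfge8, Enpp2, Itgb7, Il7, Col1a2 and Dcn, and also Csn3 and Btn1a1, which are on no list. Members and lists were chosen with earlier results of these data known. Alternatives were total counts, DESeq2 1.42.0 size factors, an expected count of 1, other lengths and denominators, and libraries left out.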

Additional observations from a re-analysis of the deposited data

Results flagged for a closer look

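Of 14 sets of 6 values examined for a library far from the others, 7 in CPM and 7 over the blood endothelial sum, 2 were flagged, and chance flags about 1 in 20. Both were on the endothelial scale and both in LN-3. Madcam1 was at 0.0262 of the endothelial sum in LN-3, where the gap to the next library took 0.706 of the whole range, above the critical 0.625. Ackr1 was at 0.0107 in LN-3, with a gap of 0.640 of the range. On the CPM scale the same library fell short of that value for both genes, at 0.595 for Madcam1 and 0.592 for Ackr1. The 6 nodes are of mixed treatment, and the part of the vesicle source was not tested.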

How the results depend on the processing

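Scaling by total counts or by DESeq2 size factors, and lowering the expected count to 1, gave 11247 to 11675 genes that differ, against 11254, and all 7 members were called. Leaving out each library in turn gave 10281 to 10875 genes and 6 to 7 members, a median member ratio of 1.55 to 2.05 (lowest without LN-3), and 0 to 0 separated neighbours in the order of levels, because 5 libraries allow no p below 0.0625. The difference between Chst4 and Madcam1 took either sign, from -0.05 to 0.12 on the log2 scale. With lengths of the longest transcript 5 of 6 neighbours were again separated. Ranking among all genes with any count, not only expressed ones, moved the median percentile of the members' levels to 64.5, against 54.0, since more low genes were counted. Alternatives chosen after seeing the data were leaving out Sele, which failed the limit for an expressed gene (median member ratio 1.95), leaving Ccl21a out of the lymphatic list (highest sum 446 CPM, against 2437 CPM), scaling to blood endothelium, under which 6 members were called, and leaving out LN-2 and LN-6, the libraries richest in adipocyte RNA. Without those 2, Sele (adjusted p = 0.199) and Selp (adjusted p = 0.0761) were no longer called and the ratio of Selp was 1.59. With Cdh5 and Pecam1 alone as the denominator, the ratio of Chst4 was 1.15. Pecam1 is the larger part of that denominator too. Depth limits Sele, with 6 to 20 counts, more than any other member.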

Other observations

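B3gnt3, which encodes the enzyme that extends core 1 sugars on high endothelial mucins, did not follow the 7 members. It was at 13.0 CPM in LN-2, 12.5 CPM in LN-4 and 13.4 CPM in LN-6, against 3.96 CPM in LN-1, 4.31 CPM in LN-3 and 3.03 CPM in LN-5, with no value between. Its ratio of 4.42 was the widest among the 9 glycan enzymes. Gcnt1, which builds the core 2 branch, was at 105 CPM in LN-6 and 151 CPM in LN-4 and did not split the libraries that way. The erythroid sum was also highest in LN-4, LN-2 and LN-6, at 1093, 795 and 206 CPM, against 84.2 to 156 CPM in the others, and its part in the B3gnt3 values was not tested.

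The platelet genes were highest in LN-3 for 6 of 6, as were 6 of 7 members, again without a count over all genes. Pf4, a platelet chemokine that some macrophages also make, was at 18.2 CPM in LN-3, against 4.02 to 8.05 CPM in the other libraries, and Itga2b was at 69.6 CPM in LN-3, against 32.9 to 64.9 CPM. The T cell list held a gene of narrow range, Lck at 74.7 to 84.4 CPM, beside Trac at 0.939 to 3.20 CPM.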
